A study of Schizosaccharomyces pombe with 8 samples.

Results

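Long introns of fission yeast (Schizosaccharomyces pombe) are described here: the intron rows of the deposited table that are 200 bases or longer and have no untranslated region named beside them. They number 318 of 5361 introns, or 5.93%, lie in 309 host genes and hold 22.3% of all intron bases. Their median width is 268.5 bases, against 56 bases over all introns, and 9 hosts carry 2 of them. Of the 318, 136 lie on chromosome I, 103 on chromosome II, 76 on chromosome III and 3 in the mitochondrial genome.

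Poly-A RNA was compared between a strain with wild-type cwf10 and the cwf10-ΔNTE mutant. Wild-type cells were strain OHI246 and mutant cells strain OHI408. Both are h- and carry leu1-32 and ura4-D18, with ade6-M210 in OHI246 and ade6-M21X in OHI408. OHI408 also carries the cwf10 2-127-delta allele, which removes residues 2 to 127 of the Cwf10 protein. The cultures grew in yeast extract medium at 25 °C. Each strain gave 2 libraries, and the second read of each pair was not counted. Replicate cultures of each strain shared their growth and were handled separately afterwards, so p-values reflect no more than the spread between these libraries, and that spread may be technical. Gene rows held 36186264 to 42802817 reads per library, and the totals on introns were 174618 and 180057 in wild type against 251877 and 296204 in the mutant.

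Cwf10 is the fission yeast counterpart of Snu114, a GTPase of the U5 snRNP that sits at the heart of the spliceosome. The spliceosome recognises the 5′ splice site, the branch point and the 3′ splice site, joins the exons and releases the intron as a lariat. Most fission yeast introns are short, and a long intron places its 5′ splice site far from its branch point and 3′ splice site. Some long introns also carry other RNAs, such as box C/D snoRNAs that guide ribosomal RNA methylation.

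All 315 nuclear long introns begin with GT and end with AG in the reference sequence (RefSeq, assembly ASM294v3; some deposited rows run past the reference ends of chromosomes II and III). The first 12 and last 30 bases of a few introns are printed 5′ to 3′, with the first 6 bases, the branch-point-like motif and the terminal AG in capitals. elo1 and gnd1 have the longest nuclear introns, hom3 and atp1 the highest changes in intron reads. pfd1 and snoR61 have strong losses of spliced junctions, and the spo4 intron has almost no reads on its spliced junction. SPAC29A4.02c and rps3 each hold a small RNA gene inside the intron.
elo1 intron 1, 837 bases, minus strand, chrI:252753-253589, 5′ end: GTGAGTttgtcg
elo1 intron 1, 3′ end: ttcatgttgatttttaCTAACaatttttAG
gnd1 intron 3, 817 bases, plus strand, chrII:230680-231496, 5′ end: GTAAGTtttgtg
gnd1 intron 3, 3′ end: tcgaatgtgaatatgCTAACatcattgtAG
hom3 intron 1, 371 bases, plus strand, chrII:3709385-3709755, 5′ end: GTGAGTattttg
hom3 intron 1, 3′ end: aaattacaaattactaaataatttatttAG
atp1 intron 2, 269 bases, plus strand, chrI:5257073-5257341, 5′ end: GTATGTcaacaa
atp1 intron 2, 3′ end: cgcttgcttttgCTAATcgataatttttAG
pfd1 intron 3, 223 bases, minus strand, chrII:1756043-1756265, 5′ end: GTAAGTtttcta
pfd1 intron 3, 3′ end: gttggctgttttaCTGACccatactttaAG
snoR61 intron 1, 336 bases, minus strand, chrII:3874462-3874797, 5′ end: GTATGTgcaaat
snoR61 intron 1, 3′ end: ttattaatgtttttatattaaCTAATttAG
spo4 intron 2, 260 bases, plus strand, chrII:3828462-3828721, 5′ end: GTACGTgcaaat
spo4 intron 2, 3′ end: ttaaaaattgaatggCTAACaattatctAG
SPAC29A4.02c intron 1, 293 bases, plus strand, chrI:5144035-5144327, 5′ end: GTAAGTagcaaa
SPAC29A4.02c intron 1, 3′ end: ttgacctgttttaCTAATtgtcaattttAG
rps3 intron 1, 252 bases, minus strand, chrII:4239039-4239290, 5′ end: GTAAGTaatctt
rps3 intron 1, 3′ end: tgcttctttctaaagtaCTGACcaatttAG

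The 5′ splice sites of long introns were GTAAGT in 138 of the 315, or 43.8%. The share was 36.8% of introns of 100 to under 200 bases, 27.9% of those of 60 to 99 bases and 22.3% of those under 60 bases. GTATGT followed in 78 long introns, or 24.8%. At the other end, the branch-point-like motif CTAAC, or a variant (CTAAT or CTGAC or CTGAT), was found on the intron's strand within the last 50 bases of 268 long introns, or 85.1%, and of 79.3% of introns of 60 to under 200 bases. In long introns the same letters were found on the opposite strand of that window in 18.1%. Where several matched, the one nearest the intron's end was taken. CTAAC was the commonest, in 188 long introns, and the last A of the motif lay a median of 11 bases before the intron's end, against 12 in introns of 60 to under 200 bases. GC content was a median of 31.0% in long introns and 29.0% over all introns. In the RefSeq annotation 306 long introns interrupt a coding sequence, 3 lie in a 5′ UTR, 1 in a 3′ UTR (pfd1 intron 3), 1 in a non-coding RNA (snoR61), and 7 are not annotated as introns.

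Reads lying on the intron were set against the reads of the host gene, a measure called intron retention here. The long introns rose almost throughout in cwf10-ΔNTE. Of the 305 that could be tested, 270 rose, 1 fell and 34 did not pass the threshold (edgeR quasi-likelihood test with Benjamini-Hochberg adjustment over 5038 introns, adjusted p below 0.05). Over all introns tested, 47.1% rose and 0.298% fell. The median log2 change was 1.19 in long introns, with quartiles of 0.73 and 1.64, and 0.81 over all introns. Of the long introns, 190 rose at least 2-fold, where 35.0% of all introns did so, and 41 rose at least 4-fold. The mutant pair of libraries lay wholly above the wild-type pair in 286 of the 305 long introns, or 93.8%, against 71.2% of all introns.

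**Figure D1:**
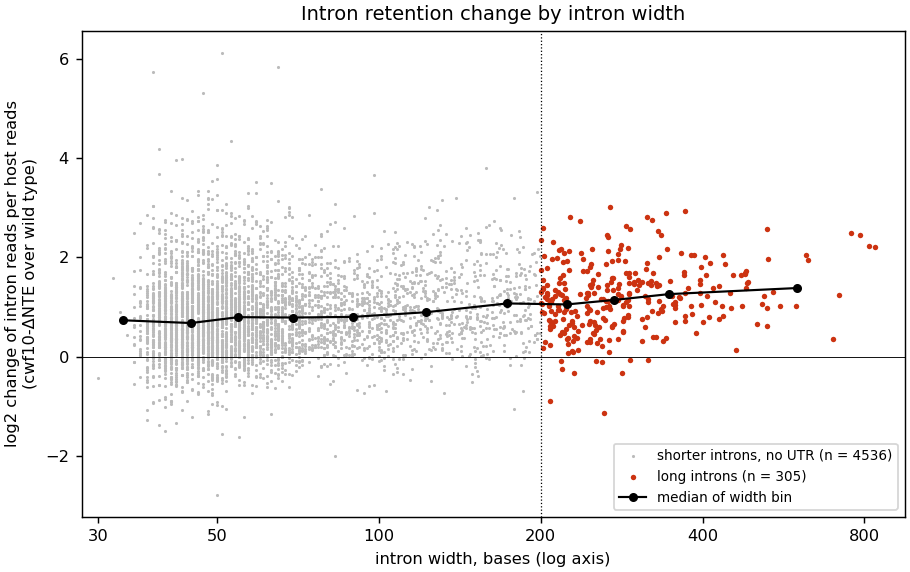
Log2 change of intron reads per host reads (cwf10-ΔNTE over wild type) against intron width in bases on a log axis, for introns with no named untranslated region, with the few of under 28 bases left off. Red points are the 305 long introns tested, grey points shorter introns, the black line joins medians of width bins and the dotted line marks 200 bases; the medians rise with width and most red points lie above 0.

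The level of retention differed widely between long introns. Intron reads per base were expressed as a percentage of the host's exon reads per base, a scale on which 100% would be an intron as densely covered as its exons. In wild type the median over the 305 introns was 5.35%, with quartiles of 2.79% and 10.6%, and in the mutant it was 13.2%, with quartiles of 6.84% and 26.2%. Introns at 20% or more numbered 36 in wild type and 107 in the mutant, and introns below 5% numbered 145 and 45.

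The highest changes lay in genes of varied function. The intron of atp1, the alpha subunit of mitochondrial ATP synthase, held 29 and 31 reads in the wild-type libraries against 232 and 279 in the mutant libraries. Its reads per 1000 host reads were 0.938 and 0.938 in wild type against 7.65 and 7.64 in the mutant, a log2 change of 3.02 ± 0.16 (SE, adjusted p = 1.76e-14, edgeR). The mutant pair lay far above the wild-type pair. For hom3, an aspartate kinase of amino acid synthesis, intron reads rose from 200 and 214 to 831 and 958 while host reads were 14229 and 15203 in wild type against 7737 and 8888 in the mutant. The hom3 intron thereby went from 7.12% and 7.13% of its exons' read density to 54.4% and 54.6% (log2 change 2.93 ± 0.08, adjusted p = 1.30e-20, edgeR). The strains did not overlap at hom3 in intron reads, host reads or density.

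The first intron of hsf1, the heat shock transcription factor, held 17 and 12 reads in wild type against 115 and 141 in the mutant (log2 change of reads per host reads 2.89 ± 0.22). That of osm1, a fumarate reductase, went from 18 and 17 reads to 133 and 156 (2.82 ± 0.20). The vma9 intron, in a gene for a subunit of the vacuolar proton pump, went from 46 and 63 reads to 367 and 401 (2.63 ± 0.13). In each of these the strains' libraries did not overlap, as was also so for gab1 (GPI transamidase subunit), duc1 intron 3, wdr7, cul1 intron 4 (cullin scaffold of ubiquitin ligases) and osh42 intron 3 (oxysterol-binding protein), with log2 changes of 2.80, 2.74, 2.73, 2.59 and 2.58. Their adjusted p-values ran up to 8.04e-07 (edgeR, wdr7), and wild-type reads were as few as 5 and 6 in wdr7 and 6 and 7 in gab1.

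The 2 longest nuclear introns rose as well. The 837-base intron of elo1, a fatty acid elongase, held 345 and 370 reads in wild type against 1421 and 1728 in the mutant, a log2 change per host reads of 2.21 ± 0.06 (adjusted p = 8.58e-20, edgeR). The 817-base intron of gnd1, the phosphogluconate dehydrogenase of the pentose phosphate pathway, held 336 and 347 reads in wild type against 1006 and 1203 in the mutant, a change of 2.22 ± 0.07 (adjusted p = 1.59e-19). Both mutant libraries were about level with each other and above both wild-type libraries. The 3 mitochondrial introns, of 2526, 1210 and 1081 bases in SPMIT.05 and SPMIT.01, are not spliceosomal; they held 2 to 11 reads per library and could not be tested against their hosts.

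**Figure D2:**
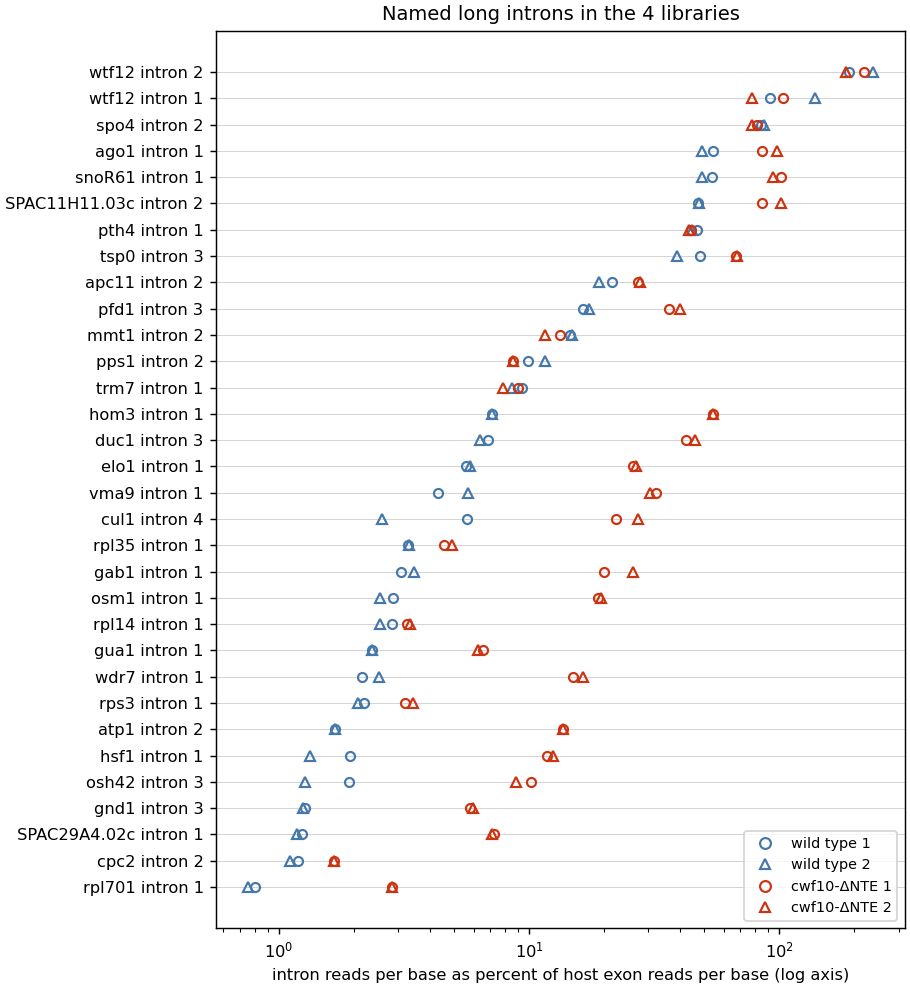
Intron reads per base as a percentage of host exon reads per base, on a log axis, for the nuclear long introns named by the rule for introns to be described, sorted by the wild-type mean. Blue symbols are the 2 wild-type libraries and red symbols the 2 cwf10-ΔNTE libraries; the red pair lies to the right of the blue pair in most rows and is mixed with it or to its left in wtf12, pth4, trm7, spo4, mmt1 and pps1.

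Some long introns did not rise in retention. Of the 34 that did not pass, 25 had a positive log2 change. The second intron of spo4, a kinase required in meiosis, held 277 and 301 reads in wild type against 180 and 203 in the mutant. Its read density was 84.3% and 87.0% of the exons' in wild type against 81.8% and 78.0% in the mutant (log2 change per host reads -0.10 ± 0.10, adjusted p = 0.41, edgeR). The spo4 intron had 49 to 85 boundary reads per library and a single exon-exon read in all 4 libraries, in the mutant. A non-coding RNA row, SPNCRNA.1644, overlaps this intron on the opposite strand. The use of strand in counting is not given, so reads of that RNA may be included. The second intron of pps1, a phosphatidylserine synthase, held 62 and 70 reads in wild type against 44 and 52 in the mutant (-0.32 ± 0.19, adjusted p = 0.18), and the values of mmt1 intron 2 (mitochondrial iron transporter) and trm7 intron 1 (tRNA methyltransferase) were -0.25 ± 0.34 and -0.09 ± 0.25. For mmt1 the value was 0.59 with library sizes in place of host reads, which did not pass either (adjusted p = 0.14, edgeR). Per library, the intron reads of pps1 fell (log2 change -0.45, adjusted p = 0.049, edgeR). Its exon-exon reads per host reads rose (0.25, adjusted p = 0.038, edgeR). Other measures of trm7 changed too. Its boundary reads were 1 and 2 in wild type against 6 and 7 in the mutant (log2 change per host reads 2.13, adjusted p = 0.041, edgeR). The log2 ratio of its exon-exon to its boundary reads changed by -1.99 (adjusted p = 0.011, limma).

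The 10 long introns in the wtf family, meiotic drive genes with near-identical copies, lie in 9 hosts and are uncertain because reads can be split between copies. Only 4 could be tested: wtf7 intron 1 was the single long intron that fell, with 27.4 and 32.1 reads per 1000 host reads in wild type against 16.5 and 15.8 in the mutant (log2 change -0.88 ± 0.35, adjusted p = 0.039, edgeR). It rests on 14 to 20 reads per library, and 0 to 2 long introns fell when a library was left out. With DESeq2, and with a replicate block, 0 long introns fell, and with library sizes in place of host reads 4 did. wtf15 rose on 1 to 8 reads per library, and both introns of wtf12 did not pass. In wtf12 the second intron carried 190% and 238% of the exons' density in wild type and no exon-exon read in any library. The 13 untested long introns are 6 wtf introns, the 3 mitochondrial ones, SPAC9E9.17c, 1 of 2 in SPAC977.18 and both in SPBPB2B2.18. The hosts SPAC977.18 and SPBPB2B2.18 fell by 2.63 and 5.24 on the log2 scale, and they were the hosts that fell at least 2-fold.

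Several other members were already retained in wild type. The snoR61 intron lay at 53.9% and 49.0% of its exons' density in wild type and at 102% and 94.3% in the mutant. Intron 3 of tsp0 went from 48.3% and 39.1% to 67.0% and 67.5% (log2 change per host reads 0.62 ± 0.08, adjusted p = 7.74e-07, edgeR). Another gene row, SPBC725.11c, overlaps the tsp0 intron on the opposite strand, and its reads may be included too. The intron of pth4 stood at 47.1% and 44.8% in wild type against 44.2% and 43.6% in the mutant (log2 change per host reads -0.07 ± 0.23, adjusted p = 0.82, edgeR). Across the 305 introns, wild-type intron reads per 1000 host reads and the log2 change had a Spearman rho of -0.32, given as a description because both come from the same libraries.

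Summed over members, intron reads per 1000 host reads were 10.9 and 10.5 in wild type against 22.6 and 23.1 in the mutant, a ratio of 2.13. Introns under 200 bases had 10.5 and 10.4 in wild type against 16.5 and 16.5 in the mutant, a ratio of 1.58. The log2 ratio of long to shorter introns was 0.05 and 0.02 in the wild-type libraries against 0.45 and 0.48 in the mutant libraries. The mutant pair did not overlap the wild-type pair, and the difference of 0.43 had an exact two-sided permutation p of 0.33, the smallest that 2 libraries against 2 allow. Long introns took 20.01% and 19.8% of all intron-row reads in wild type against 23.6% and 24.1% in the mutant.

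Within the long introns the median change was higher in wider classes. The median log2 change was 1.05 from 200 to under 250 bases, 1.14 up to under 300, 1.26 up to under 400 and 1.38 from 400 upwards. The numbers that rose were 95 of 115, 70 of 80, 62 of 66 and 43 of 44. The median of the mean reads per intron also grew over these classes, from 55.8 to 169, so wider introns were measured more precisely; its part in the counts was not tested. Introns of 100 to under 200 bases had a median change of 0.94, with 487 of 703 higher, and those under 100 bases 0.75, with 1518 of 3833 higher. Over the 305 long introns width and change had a Spearman rho of 0.19.

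**Figure D3:**
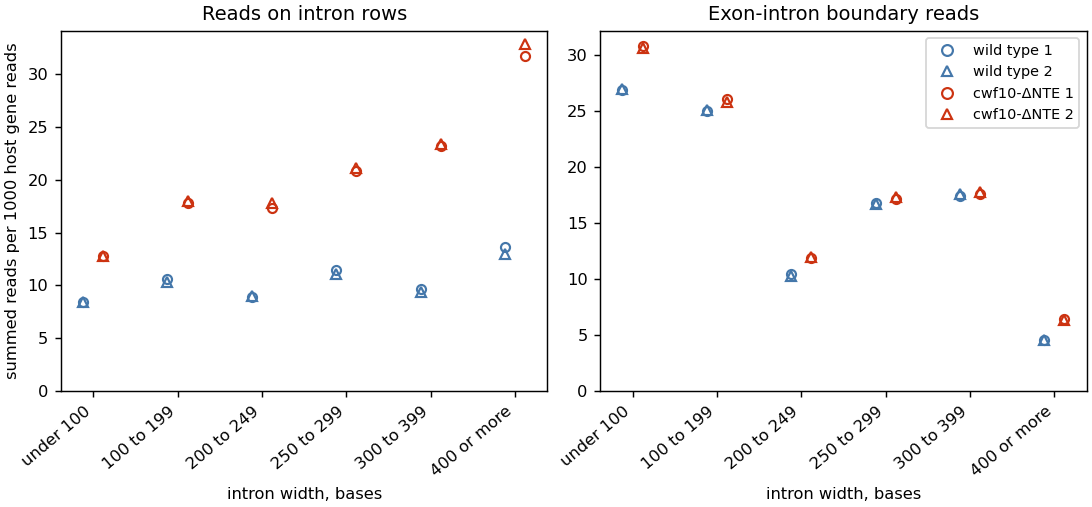
Reads on intron rows (left) and exon-intron boundary reads (right), summed over introns of each width class and given per 1000 host gene reads; each symbol is 1 library. In the left panel the red mutant symbols lie above the blue wild-type ones in every class, by 1.52, 1.71, 1.96, 1.86, 2.44 and 2.43 times from the narrowest class to the widest, which is not a steady rise, and in the right panel the ratios of mutant to wild type run from 1.01 to 1.39.

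Introns were also compared within classes of mean reads over all 4 libraries. The mutant's own reads help to set these classes, and they did not match the widths in depth or density: at 50 to 200 reads the median mean was 91.5 reads for long introns, 77.2 for those of 100 to under 200 bases and 72 for those under 100. The median densities in the first wild-type library were 5.89%, 11.4% and 26.0% of the exons'. Among introns with a mean of 50 to 200 reads, 148 of 157 long introns rose, with a median log2 change of 1.28. In the same class 191 of 233 introns of 100 to under 200 bases rose (median 0.92), and 173 of 313 of those under 100 bases (median 0.49). At 200 to 1000 reads the numbers were 63 of 66 (1.12), 31 of 44 (0.54) and 9 of 34 (0.14), and at 20 to 50 reads they were 46 of 59 (1.11), 205 of 269 (1.04) and 575 of 1079 (0.73).

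Genes with both kinds of intron allowed the comparison inside a transcript. In 174 hosts, 178 long introns had at least 1 tested intron under 200 bases beside them. The long intron's log2 change was above the median of its shorter neighbours in 119 cases and below it in 59. The median difference was 0.31, with quartiles of -0.20 and 0.94, so the order was often the reverse. Where the neighbours had a mean of at least 20 reads, the long intron was above in 67 of 94 cases, with a median difference of 0.41. For exon-intron boundary reads the long intron was above in 87 of 171 cases, with a median difference of 0.03.

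**Figure D4:**
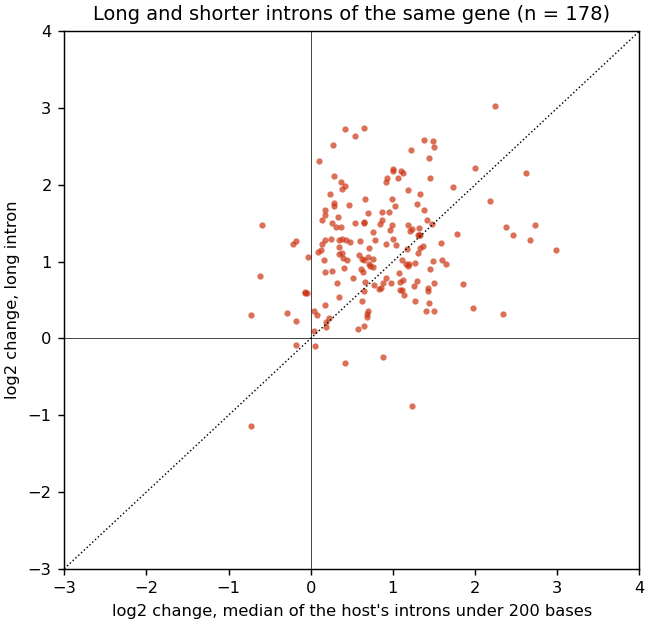
Log2 change of intron reads per host reads of 178 long introns (y axis) against the median change of the introns under 200 bases in the same gene (x axis). Each point is 1 long intron and the dotted line marks equal change; 119 points lie above the line and 59 below it.

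Reads counted at exon-intron boundaries changed less, by their median, than reads inside the long introns. How they were counted is not given, so their origin in unspliced RNA is assumed. For exon-intron reads per host reads, 113 long introns rose, 1 fell and 185 did not pass (edgeR, adjusted p below 0.05), against 30.1% and 0.637% of all introns. DESeq2 called 54 higher. The median log2 change was 0.29 in long introns and 0.31 over all introns. Of the 266 long introns that rose in retention and were tested here, 109 also rose at the boundaries and 157 did not pass; that is 41.0%, beside 42.2% of all introns that rose in retention. Summed over long introns, boundary reads per 1000 host reads were 13.20 and 13.15 in wild type against 13.9 and 14.0 in the mutant, a ratio of 1.06 beside the 2.13 for intron reads. These 2 sums weigh introns differently. In wild type cpc2 intron 2, for example, held 4594 and 5162 boundary reads but 359 and 355 intron reads.

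The elo1 intron shows the contrast. Its intron reads rose more than 4-fold, while its boundary reads were 347 and 381 in wild type against 333 and 411 in the mutant (log2 change per host reads 0.10 ± 0.08, adjusted p = 0.39, edgeR). In hsf1 the boundary reads were 75 and 86 in wild type against 90 and 130 in the mutant, and in osm1 52 and 60 against 55 and 87, with adjusted p-values of 0.36 and 0.69. Per host reads, the strains overlapped in both of these introns. In gnd1, by contrast, boundary reads went from 58 and 50 to 170 and 190 (2.26 ± 0.15, adjusted p = 2.93e-45), which is close to the change of its intron reads. They rose likewise in hom3, from 23 and 29 to 78 and 86, and in atp1, from 7 and 11 to 45 and 68.

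Intron reads were also tested against boundary reads directly, in the 221 long introns with at least 10 boundary reads in every library. The fit takes the boundary reads as known, so their sampling noise enters only through the spread between libraries. Intron reads gained on boundary reads in 141 and lost in 7 (edgeR, adjusted p below 0.05), against 21.7% and 2.36% of all introns, with a median log2 change of 0.85 and of 0.52. Without the first mutant library 92 were called higher, and without the second 74. Log2 changes of this ratio were 2.73 in osm1, 2.70 in hsf1, 2.56 in SPAC29A4.02c, 2.15 in duc1 intron 3, 2.11 in elo1 and 1.97 in vma9, with adjusted p-values up to 9.05e-07 (edgeR, hsf1). For gnd1 it was -0.04 ± 0.11 (adjusted p = 0.85).

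Boundary reads outnumbered intron reads in 125 of the 318 long introns in wild type and in 75 in the mutant. The boundaries of a long intron held as many reads as a median of 188 and 189 bases of its interior in the 2 wild-type libraries, and as 116 and 114 bases in the mutant. An intron uniformly covered in both strains would give the same figure in each. SPAC29A4.02c, for translation elongation factor 1 gamma, had 2911 and 3103 boundary reads but 212 and 214 intron reads in wild type, and 2157 and 2469 against 898 and 1042 in the mutant. How boundary reads were counted is not given in the sources used here, and osh42 intron 3 had no boundary and no exon-exon read in any library beside 32 to 184 intron reads. In all, 8 long introns lacked both kinds of read, of which 2 were tested for retention and both rose.

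Among long introns, last introns stood apart in boundary reads. They rose at the boundary in 38 of 70 cases (54.3%), with a median log2 change of 0.72. First introns did so in 22 of 69 (31.9%, median 0.25), internal ones in 14 of 39 (35.9%, 0.35) and sole introns in 39 of 121 (32.2%, 0.24). Over all introns 30.1% rose, near the shares of first, internal and sole long introns. Last introns of shorter width were not set beside these. Boundary reads per 1000 host reads were lowest in last introns in wild type, at medians of 3.81 and 4.03, against 21.2 and 20.2 in first introns. In the mutant the medians were 9.47 and 9.22 in last introns and 24.7 and 24.5 in first introns. Median retention changes differed little with position, at 1.16 in last, 1.09 in first, 1.28 in internal and 1.197 in sole introns. The numbers that rose were 67 of 73 (91.8%), 57 of 70 (81.4%), 33 of 41 (80.5%) and 113 of 121 (93.4%), beside 47.1% of all introns.

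**Figure D5:**
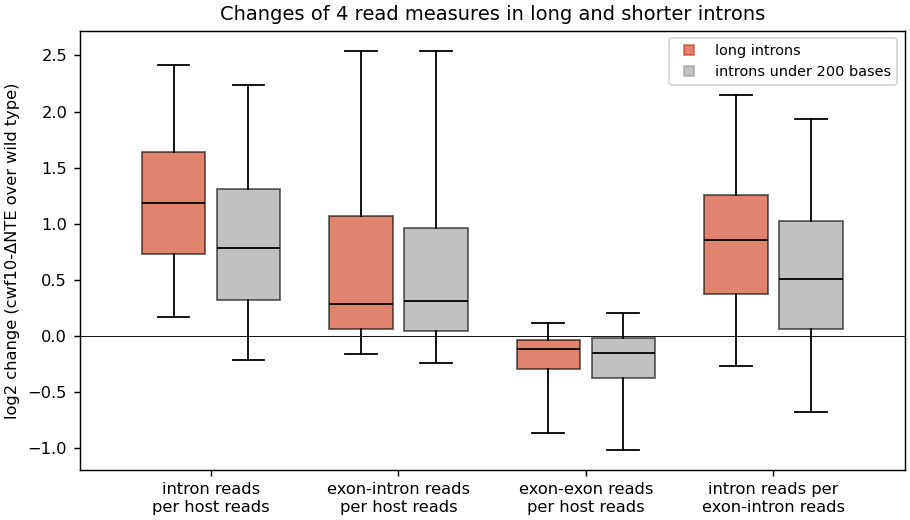
Log2 changes (cwf10-ΔNTE over wild type) of 4 measures in long introns (red) and in introns under 200 bases (grey), both without a named untranslated region. Boxes span the quartiles with the median as a line and whiskers run from the 5th to the 95th percentile over introns; the medians of long introns are 1.19 for intron reads, 0.29 for exon-intron reads, -0.11 for exon-exon reads and 0.85 for intron reads per exon-intron reads.

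Spliced junctions fell in a minority of long introns. Exon-exon reads per host reads fell in 66 of 293 long introns and rose in 3 (edgeR, adjusted p below 0.05), against 19.8% and 0.658% of all introns. The share of long introns that fell, 22.5%, was near that of all introns, and the median log2 changes were -0.11 and -0.15. DESeq2 called 9 lower, library sizes in place of host reads 142, and 24 were called lower without either of the wild-type libraries. The mutant pair lay wholly below the wild-type pair in 165 long introns, or 56.3%, against 51.1% of all introns. All 66 that fell had risen in retention, 22.6% of the 292 tested for both, beside 14.0% of all introns. These 2 shares also depend on the retention calls, which took in 88.5% of long introns and 47.1% of all introns. Both measures share the host reads as denominator. Summed exon-exon reads per 1000 host reads went from 69.2 and 69.9 in wild type to 62.2 and 61.2 in the mutant, a ratio of 0.887, while the summed read density of these introns went from 6.05% and 5.87% to 12.6% and 12.9% of the exons'.

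The 3 largest log2 losses lay in introns at 16.5% to 53.9% of their exons' density in wild type. The snoR61 intron had 123 and 125 exon-exon reads in wild type against 42 and 44 in the mutant (log2 change per host reads -1.67 ± 0.17, adjusted p = 1.12e-12, edgeR). Junction reads of SPAC11H11.03c intron 2, in a gene for an uncharacterised protein, went from 63 and 65 to 10 and 28 (-1.62 ± 0.26). In pfd1 intron 3, in a gene for a prefoldin subunit that helps fold actin and tubulin, they went from 194 and 213 to 40 and 55 (-1.51 ± 0.15). The strains did not overlap in these 3, and their calls held in DESeq2 and without any single library.

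Losses in ago1 and apc11 were less firm. Intron 1 of ago1, the Argonaute of the RNA interference pathway, had 37 and 33 exon-exon reads in wild type against 10 and 16 in the mutant (-1.19 ± 0.32, adjusted p = 0.0038, edgeR), and intron 2 of apc11, a subunit of the anaphase-promoting complex, 34 and 29 against 12 and 20 (-1.07 ± 0.31, adjusted p = 0.0076). Without the first wild-type library the adjusted p-values became 0.093 and 0.13, without the first mutant library 0.060 and 0.087, and for apc11 without the second wild-type library 0.066. In hom3 the junction reads went from 485 and 526 to 140 and 165 (-0.90 ± 0.09, adjusted p = 4.82e-13). In elo1 they were 632 and 645 in wild type against 536 and 672 in the mutant (-0.01 ± 0.06, adjusted p = 0.93), beside its 4-fold gain of intron reads.

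The deposited log2 splicing efficiency, the log2 ratio of exon-exon to exon-intron reads, fell in 92 of 301 long introns and rose in none (limma, adjusted p below 0.05; 1 rose at an unadjusted p under 0.05). Over all introns 28.9% fell and 0.218% rose, and the median differences were -0.60 and -0.55. None was called without either mutant library. In the authors' deposited table, 140 long introns had a q-value below 0.05, of which 138 had lower efficiency in the mutant, making 44.0% of the 318 beside 36.4% of all introns.

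Ribosomal protein genes with rpl or rps symbols hosted 15 of the long introns. All 15 rose in retention, with a median log2 change of 0.77, and 9 rose at the boundaries. Among the other nuclear long introns 255 of 290 rose in retention (median 1.21) and 104 of 284 at the boundaries. This group also holds the introns of cpc2 and rpp0, ribosomal protein genes with other symbols. Over all introns the shares were 47.1% and 30.1%, and the median retention change was 0.81. The 15 were read more deeply, with a median of 538 mean reads against 84.1, and the part of depth in the counts was not tested. Per library, 9 of the 15 rose and 1 fell, with a median log2 change of 0.32. The rpl35 intron, which had among the most exon-exon reads (13844 and 15566 in wild type, 8977 and 10065 in the mutant), held 1085 and 1180 intron reads in wild type against 977 and 1175 in the mutant. Since rpl35 host reads were 61291 and 65777 in wild type against 39698 and 43981 in the mutant, the change per host reads was 0.53 ± 0.06 (adjusted p = 2.61e-08, edgeR) and the change per library -0.07 ± 0.06. For rpl14 both values were smaller, at 0.29 ± 0.07 and -0.10 ± 0.07, and the first had an adjusted p of 0.052 without the second mutant library. Intron 1 of rps3 differed from elo1 in the opposite sense: its boundary reads rose from 22 and 14 to 71 and 72, and its intron reads lost ground against them (-1.67 ± 0.15, adjusted p = 7.07e-08).

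Another gene row lies wholly inside 12 long introns and overlaps 57 more. Of the 12, 3 are the mitochondrial introns, and the 9 nuclear ones each hold a snoRNA or other small RNA on the same strand. All 9 rose in retention, with a median log2 change of 1.44. The numbers were 45 of 55 (0.97) where a row overlapped without lying wholly inside, and 216 of 241 (1.23) where no gene row overlapped. A RefSeq long non-coding RNA, on either strand, overlapped 168 of the 318 long introns, so the last class is not free of other transcripts. Reads on the small RNA rows are part of the intron's reads, and poly-A selected libraries do not measure mature snoRNAs as such. In SPAC29A4.02c, snoR38 had 25 and 38 reads in wild type against 192 and 218 in the mutant, 14.8% and 21.1% of the reads of the intron around it. In nog2, a GTPase gene of ribosome assembly, snR191 had 29 and 33 reads against 197 and 237, and in rpl701 snoR39b had 31 and 38 against 204 and 216.

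The row of the held RNA rose in all 9 (edgeR over all gene rows, adjusted p below 0.05, where 39.6% of gene rows rose), with log2 changes from 0.46 for snoZ15 in pfd1 to 2.81 for snR191. The smallest share of intron reads was that of snR48 in rps3, at 3.97% in wild type and 13.4% in the mutant, and the largest in wild type that of snoZ15, at 45.0%, with 40.9% in the mutant. Since these rows overlap the intron row and the host's own transcript, reads of a released small RNA, of its precursor and of the retained intron cannot be told apart. Introns of gua1 (IMP dehydrogenase, snoR54 inside) and cpc2 (the ribosomal protein RACK1, snoU24b inside) rose by 1.44 ± 0.08 and 0.53 ± 0.08 per host reads. With library sizes in place of host reads the cpc2 value was 0.19 and did not pass (adjusted p = 0.065, edgeR).

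Introns with a 5′ splice site other than GTAAGT or GTATGT had a median retention change of 1.40, beside 1.22 for GTATGT and 1.08 for GTAAGT. Exon-exon reads fell in 29 of 87 (33.3%), 14 of 77 (18.2%) and 23 of 129 (17.8%) of these introns, beside 19.8% of all introns. The shares for GTATGT and GTAAGT were near that of all introns. By branch-point-like motif, medians were 1.21 with CTAAC, 1.31 with CTAAT, 0.75 with CTGAC in 11 introns, and 1.12 with none of the 4 motifs. These classes were not tested against each other.

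Host genes of the long introns moved in both directions, mostly by small amounts. Of 306 hosts tested, 92 rose and 159 fell (edgeR, adjusted p below 0.05), against 39.6% and 38.5% of all genes, with a median log2 change of -0.07 beside 0.01 over all genes. With library totals in place of TMM factors 121 rose and 124 fell. Only wtf20 rose at least 2-fold, and SPAC977.18 and SPBPB2B2.18 fell at least 2-fold. The rise of long introns was also seen without the host as denominator: per library, 257 of 309 rose and 4 fell, with a median log2 change of 1.13, against 48.9% and 1.32% of all introns.

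Genes for splicing factors that act at the 5′ splice site, the branch point or in the tri-snRNP were read beside the introns. Of 24 listed, 19 were matched by symbol (not usp104, usp105, usp106, uaf1 and dib1), of which 4 rose and 8 fell while 7 missed the threshold, beside 39.6% and 38.5% of all gene rows; the median log2 change was -0.05. The lowest was usp107, a U1 snRNP gene, with 165 and 168 CPM (reads per 1000000 library reads) in wild type against 135 and 136 in the mutant (-0.30 ± 0.02, adjusted p = 3.12e-12, edgeR). prp2, for the large subunit of the factor that binds the polypyrimidine tract, had 184 and 181 CPM in wild type against 154 and 151 in the mutant (-0.26 ± 0.02). dbr1, the lariat debranching enzyme, had 59.3 and 60.2 CPM in wild type against 62.2 and 62.3 in the mutant (0.06 ± 0.03, adjusted p = 0.093), and cwf10 itself -0.03 ± 0.03 over its whole row. None of the 19 genes has a long intron.

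Introns on either side of the threshold of 200 bases are given as a description. Just inside it, red1 intron 2, qns1 intron 2 and gua2 intron 2, each 200 bases, had log2 changes per host reads of 1.30, 1.74 and 2.35. Just outside it, wos2 intron 1, spp2 intron 2 and sfc9 intron 3, each 1 base shorter, had changes of 0.70, 1.33 and 2.04. The 34 introns of 200 bases or more beside a named untranslated region had a median of 1.36, with 27 of 33 higher.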

How the data were processed

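Libraries were poly-A selected with a stranded kit, and the submitters' processing notes list CASAVA 1.8.2 and Bowtie 0.12.7, giving neither a role. The authors deposited 1 table of raw read counts per gene and intron row and of exon-intron read counts per intron, per the file headers. Also deposited are log2 splicing efficiencies, their fold changes between strains (log2) and a q-value of unnamed test, per the file headers, and the length of each row in bases. The sources used here do not give the genome build, the counting of boundary reads or the use of strand. Exon-exon reads were solved from the log2 efficiency, which holds a pseudocount of 1, and came out whole within 6.9e-06.

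Counts were tested with edgeR 4.0.16 (quasi-likelihood, R 4.3.3), with the log of host reads plus 1 as offset for retention, exon-exon and exon-intron reads. Introns needed 10 summed reads and hosts 50 reads in every library. Intron reads against boundary reads used boundary reads plus 1 as offset, gene and intron levels used TMM, and efficiency used limma 3.58.1 with trend. P-values were Benjamini-Hochberg adjusted over all introns or genes, at a threshold of 0.05. DESeq2 1.42.0 was an alternative. A standard error is the absolute log2 change divided by the root of F. Single values were compared by an exact permutation test (scipy 1.17.1). CPM are TMM-scaled. Symbols, introns and sequence came from RefSeq, with 6867 of 7022 gene rows matched.

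Introns named are the 10 highest and 5 lowest retention changes where the strain with more reads has a mean of at least 20, the 5 longest, the 5 lowest exon-exon changes among those called lower, the 5 most retained in wild type, 5 holding another gene row, the 3 with most exon-exon reads, and 3 on each side of the threshold. Others were named after their values were seen. The members and lists were chosen with earlier results of these data known, and classes of mean reads and comparisons within a host were added after seeing the data.

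The tests were checked on simulated counts. For each test 99 or 100 rows were changed at each fold, drawn from all rows tested, with a fixed spread between libraries. For retention, over 5021 introns, the share recovered was 11.1% at a true 1.5-fold change and 46.0% at 2-fold. For exon-exon reads the shares were 60.0% and 92.0%, for exon-intron reads 24.0% and 65.0%, for intron reads against boundary reads 1.0% and 25.0%, and for efficiency none. Of the calls, 5.0% were false for retention and 7.1% for intron reads against boundary reads. In the data 47.1% of introns rose in retention, and long introns had a median of 89.2 mean reads against 18.5 over all introns. The shares recovered therefore do not describe the tests of long introns. Replicates of a strain differed beyond sampling noise (chi-square per degree of freedom 2.40 and 2.94).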

Additional observations from a re-analysis of the deposited data

How the results depend on the processing

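Counts of long introns called higher in retention and in level, and of host genes called in either direction, stayed within 1.5 times under every alternative run. The single long intron lower in retention became 4 with library sizes, 0 with DESeq2 or a replicate block, and 0 to 2 with a library left out; the 4 lower in level became 2 with library totals only or DESeq2, and 2 to 3 with a library left out. For retention the long introns called higher numbered 223 with DESeq2, 216 without introns overlapping another gene row, and 237 to 264 when a library was left out. For exon-exon reads the count fell from 66 to 9 with DESeq2, rose to 142 with library sizes in place of host reads, and was 24 to 45 when a library was left out. For exon-intron reads it was 54 with DESeq2 and 81 to 100 with a library left out. Efficiency calls ran from 0 to 84 and calls of intron against boundary reads from 74 to 113 when a library was left out. The cause was not tested, beyond the smaller number of libraries.

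Replicate numbers did not pair the samples: deviations of same-numbered libraries had correlations of -0.02 over genes and -0.03 over introns. With a replicate block 271 long introns rose in retention, 63 fell in exon-exon reads and 72 in efficiency, and 110 rose in exon-intron reads.

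The summed ratio was 2.01 with a width threshold of 150 bases and 2.10 to 2.17 with a library left out. The difference to shorter introns, 0.43 on the log2 scale, was 0.38 with that threshold, 0.38 without overlapping introns, and 0.41 to 0.45 with a library left out. With library sizes in place of host reads, log2 changes turned sign for retention of wtf12 introns 1 (0.45) and 2 (0.71), mmt1 intron 2 (0.59), rpl35 (-0.068) and rpl14 (-0.095), for exon-exon reads of mmt1 (0.75) and cpc2 (-0.33), and for exon-intron reads of spo4 (-0.42), cpc2 (-0.33) and rpl35 (-0.58). The apc11 intron's rise in retention was lost with DESeq2 (adjusted p = 0.28) and without the second wild-type (0.17), first mutant (0.11) or second mutant library (0.14). The median long intron held 51 and 54 reads in wild type.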

Other observations

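Host genes with 2 long introns gave side-by-side values that differ within a transcript. In naa10, for a subunit of an N-terminal acetyltransferase, intron 4 of 203 bases rose by 2.03 on the log2 scale per host reads and intron 2 of 315 bases by 0.79 (edgeR, adjusted p = 9.46e-08 and 0.0016). In tup12, for a transcriptional corepressor, intron 2 of 397 bases rose by 1.82 and intron 3 of 263 bases by 0.73. In mrps16, for a mitochondrial ribosomal protein, the introns of 429 and 266 bases rose by 1.42 and 1.43. These pairs were chosen after their values were seen, and the differences within them were not tested.

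A few last introns, also picked after their values were seen, gained boundary reads from low counts in wild type. The boundaries of nog1 intron 3, in a gene for a GTPase of ribosome assembly, held 1 and 1 reads in wild type against 26 and 27 in the mutant, while its intron reads were 34 and 57 against 94 and 132. Those of ank1 intron 2 held 5 and 11 reads in wild type against 62 and 83 in the mutant (log2 change per host reads 3.43, adjusted p = 1.37e-27, edgeR), while its intron reads were 48 and 51 against 66 and 68. The rho1 intron, in a gene for a small GTPase of cell wall synthesis, was the single long intron whose boundary reads fell, by 0.30 on the log2 scale (adjusted p = 0.0025).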
